A study of Bos taurus with 129 samples.

Results

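The genes described are 10 that move copper into, through and out of cells, taken by symbol from the gene count table of a beef cattle blood study. SLC31A1, SLC31A2, ATP7A, ATP7B, ATOX1, CCS, COX17, SCO1, SCO2 and COMMD1 were all present among 32395 rows, and all 10 were among the 18937 genes that passed the filter on low counts. The rule used no measured value, although the genes were chosen with earlier results of these data known.

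Whole blood was drawn into RNA stabilizing tubes from 26 crossbred beef steers of unknown earlier history at days 0, 13, 28, 45 and 60, and each sample gave 1 RNA-seq library. The day 13 library of 1 healthy AAC animal was not analysed here. INR steers (n = 11) had free access to feed that held copper, cobalt, manganese and zinc as sulfates. In AAC (n = 8) the same minerals came from organic sources, with copper, manganese and zinc complexed to amino acids and cobalt as glucoheptonate. COMBO steers (n = 7) had the AAC feed plus an oral trace mineral drench before shipment, at day 0 and with any treatment for illness. Day 0 was the day of pen enrolment, and by then COMBO steers had received the first drench. Healthy steers (n = 12, 4 in each supplement group) were never diagnosed with or treated for bovine respiratory disease (BRD). BRD steers (n = 14) comprised 4 AAC, 3 COMBO and 7 INR animals. All steers were transported. At day 0 all were vaccinated and given injectable doramectin, and they were vaccinated again later. No group went without supplemental copper. Steers of a supplement group shared pens at the start, so that supplement and first pen cannot be told apart, and in COMBO the healthy steers stood in pen 5 and the BRD steers in pen 6.

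Copper is both a needed cofactor and a toxic ion, and cells keep almost none of it free. SLC31A1 (CTR1) is the high affinity importer at the plasma membrane, and the related SLC31A2 (CTR2) acts mainly in endosomes and lysosomes. Inside the cell, small chaperones hand copper to fixed partners. ATOX1 serves the copper pumps ATP7A and ATP7B, which load copper enzymes in the secretory pathway and export the excess. CCS serves the antioxidant enzyme SOD1. COX17, SCO1 and SCO2 serve cytochrome c oxidase in mitochondria, and COMMD1 takes part in the endosomal sorting of the pumps. Copper status is a long-standing concern in cattle, in which deficiency has been linked to weaker neutrophil function and anaemia.

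Total counts ranged from 31613545 to 61692136 per library (median 44268685). The median r of a library with the others was 0.966 in the middle library and 0.943 in the lowest, in an INR healthy steer at day 13. Levels are CPM, that is, counts relative to library size, scaled with trimmed mean of M-values factors. They were compared between animals and days but not between genes, because CPM is not scaled to transcript length. Blood cell markers shifted after day 0. The summed level of 4 monocyte genes had a median of 659 CPM (393 to 1813) at day 0 and medians of 409 to 496 CPM on later days, and of these genes 2, 3, 2 and 4 were lower at days 13, 28, 45 and 60. Of 7 neutrophil genes tested, 3 or 4 were lower and 1 was higher on each later day. Erythroid genes went from a summed median of 138 CPM at day 0 to medians of 843 to 2470 CPM, with 4 to 6 of 6 higher, while HBA was at 0 in all libraries. B cell genes were higher in 1, 2, 3 and 2 of 4 at days 13, 28, 45 and 60, and platelet genes in 4, 3, 3 and 3 of 5. T cell genes showed 0 or 1 of 5 changed. In whole blood, a change in the share of a cell type and a change in RNA per cell cannot be told apart.

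**Figure D1:**
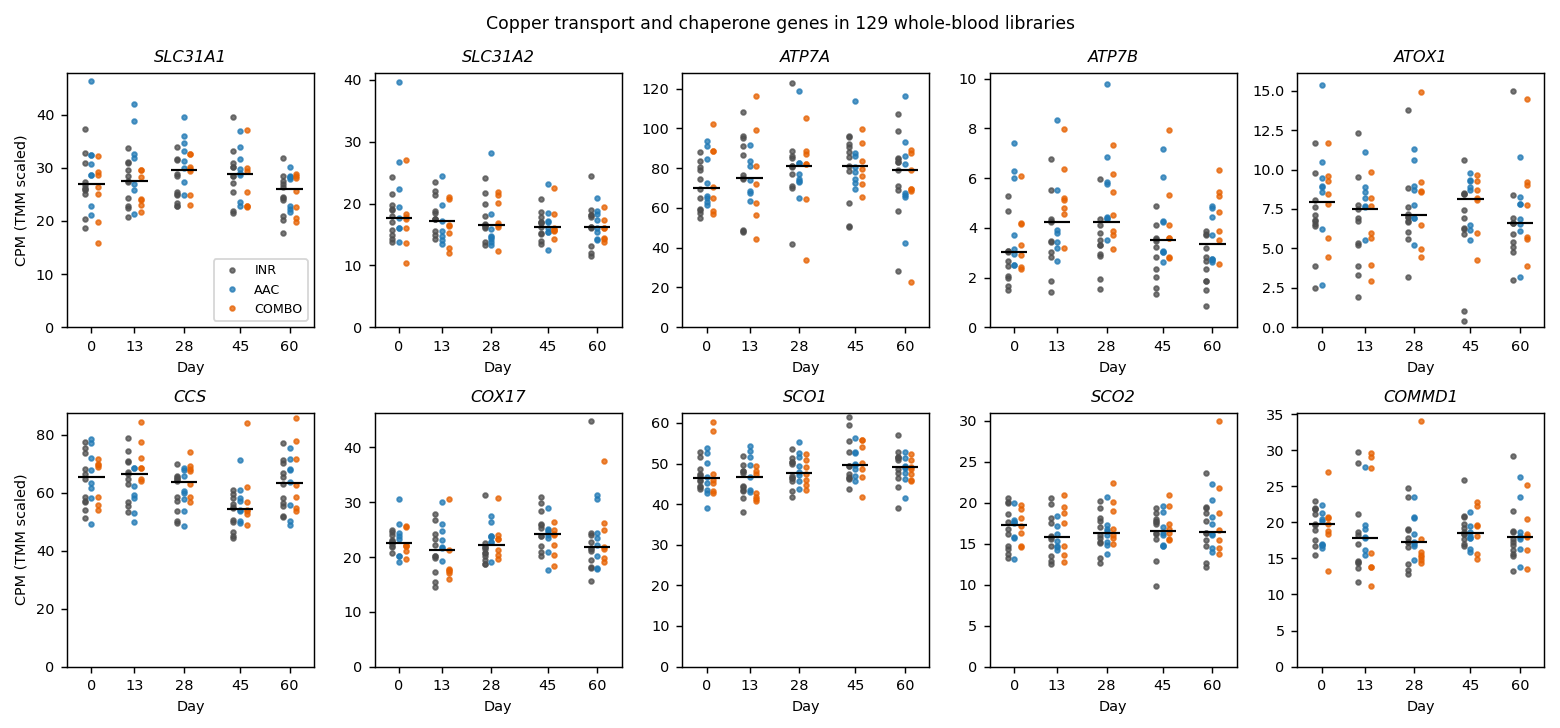
CPM of each gene (vertical axis, one scale per gene) against day (horizontal axis) in all libraries, 1 point per animal, with INR, AAC and COMBO in separate colours and black bars for the median of all animals at that day. The ATP7B median rose from 3.04 CPM at day 0 to 4.23 and 4.22 CPM at days 13 and 28, and the CCS median fell from 65.6 to 54.5 CPM at day 45, while the ranges of all days overlap for every gene.

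The first comparison set each later day against day 0 within the same animals, over all supplements and both disease labels. Copper handling genes moved little. ATP7B was higher at days 13 and 28, CCS was lower at day 45, SLC31A2 was lower at days 45 and 60, SLC31A1 was lower at day 60 and SCO1 was slightly higher at day 45. In all, 7 of 40 tests of the 10 genes passed (17.5%), with edgeR's quasi-likelihood test, animal as a block and a false discovery rate (FDR) below 0.10 over all genes tested. Over all 18937 genes the share called was 33.21% at day 13, 36.04% at day 28, 30.95% at day 45 and 33.36% at day 60, so that the share among the 10 genes was below that of all genes. By day, 1, 1, 3 and 2 of the 10 were called. No group without supplemental copper was sampled, so that supplementation, vaccination, doramectin, age and time since transport cannot be told apart.

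SLC31A1, the importer at the cell surface, ranged from 15.9 to 46.3 CPM at day 0 (median 27.02). Its medians were 27.6, 29.66, 28.8 and 26.1 CPM at days 13, 28, 45 and 60, and the highest library at day 60 stood at 31.9 CPM. The day 60 level was lower by 7.72% (log2 fold change -0.12, SE 0.050, FDR = 0.0719), with 16 of 26 animals lower. Days 13, 28 and 45 gave 0.02, 0.09 and 0.06 on the log2 scale and did not pass (FDR = 0.784, 0.189 and 0.431). The day 60 call was the least stable of the 7. It was lost in healthy libraries alone, in BRD libraries alone and when any 1 of 8 animals was left out. It was also lost without the day 60 library of animal 40. That library had the lowest RNA integrity of all.

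SLC31A2, the endosomal relative of the importer, ranged from 10.4 to 39.6 CPM at day 0 (median 17.7), and its highest library belonged to AAC BRD animal 21. The medians fell to 16.2 CPM at day 45 (12.6 to 23.2) and 16.2 CPM at day 60 (11.6 to 24.52). Day 45 was lower by 9.27% (log2 -0.14, SE 0.058, FDR = 0.0646) and day 60 by 10.9% (log2 -0.17, SE 0.058, FDR = 0.0238), with 17 and 16 of 26 animals lower. Days 13 and 28 pointed the same way at -0.10 and -0.11 without passing (FDR = 0.209 and 0.169). The day 45 call was lost without any 1 of 6 animals (6, 21, 31, 40, 43 or 49), while the day 60 call was kept in each of 26 omissions. In healthy libraries alone neither call was made, and in BRD libraries alone only that of day 60 was. Without animal as a block neither was made.

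SLC31A2 tracked the myeloid markers more closely than any other gene of the group. Over all libraries its log2 CPM had a Pearson r of 0.73 with the summed monocyte genes and 0.58 with the summed neutrophil genes, against -0.54 with the summed B cell genes. The 3 genes whose levels were most like it were ADAP1 (r = 0.85), SGSH, a lysosomal sulfatase (r = 0.83), and PNPLA6 (r = 0.82). These points share animals, since each animal gave up to 5 libraries, and they share the scaling. The part of the monocyte decrease in the SLC31A2 values was not tested.

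ATP7A, the copper pump that most cell types use, had medians of 70.1 CPM at day 0 and 75.1, 80.9, 81.1 and 79.1 CPM afterwards. None of its changes passed (log2 0.00 to 0.15, lowest FDR = 0.229). Its spread widened at day 60, when the libraries ran from 22.8 to 116.2 CPM, against 55.1 to 102.4 CPM at day 0. The lowest value came from COMBO BRD animal 54 at day 60 and the next, 28.2 CPM, from INR BRD animal 40 at day 60.

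ATP7B, the second copper pump and best known from the liver, ranged from 1.48 to 7.42 CPM at day 0, with a median of 3.04. The range was 1.40 to 8.32 CPM (median 4.23) at day 13 and 1.53 to 9.77 CPM (median 4.22) at day 28. It was 1.33 to 7.94 CPM (median 3.50) at day 45 and 0.837 to 6.32 CPM (median 3.35) at day 60. The rise was 26.8% at day 13 (log2 0.34, SE 0.096, FDR = 0.00436) and 27.02% at day 28 (log2 0.35, SE 0.094, FDR = 0.00285). In 20 of 25 animals the day 13 level was above day 0, and in 18 of 26 the day 28 level was. At days 45 and 60 the log2 change was 0.07 and -0.05 (FDR = 0.640 and 0.729), with 13 and 14 of 26 animals higher. The ranges overlapped on all days.

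Within the 59 healthy libraries the ATP7B rise was 0.50 and 0.48 on the log2 scale at days 13 and 28 (FDR = 0.0168 and 0.00994). Within the 70 BRD libraries it was 0.22 and 0.24 and did not pass (FDR = 0.291 and 0.253). The test of whether the change from day 0 differed by disease label did not pass for ATP7B or for any other of the 10 genes, as given further on.

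The gene pattern most like ATP7B over all libraries was that of TRAM2 (r = 0.81), followed by JCHAIN (r = 0.79), the joining chain of IgM and IgA and a product of antibody secreting cells, and MAP3K21 (r = 0.78). JCHAIN had medians of 419, 567.9, 553, 422 and 365 CPM at days 0, 13, 28, 45 and 60. Against the same day 0 samples it changed by 0.37, 0.32, 0.06 and -0.08 on the log2 scale and passed at days 13 and 28 (FDR = 0.0109 and 0.0266), the days at which ATP7B was higher. The summed B cell genes had an r of -0.15 with ATP7B. The part of antibody secreting cells in the ATP7B level was not tested.

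**Figure D2:**
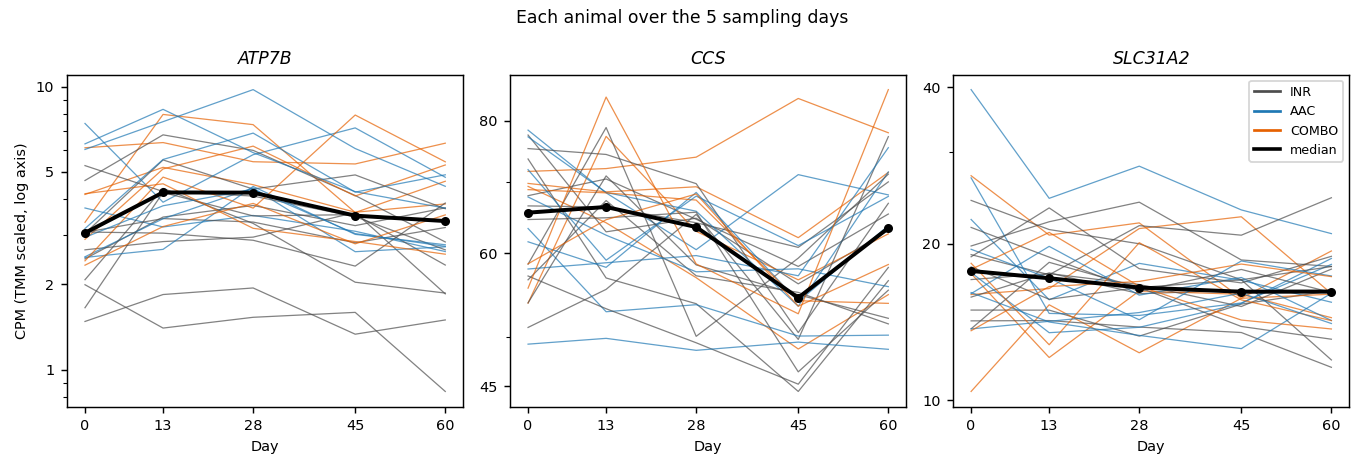
CPM (log axis) of ATP7B, CCS and SLC31A2 against day, 1 thin line per animal coloured by supplement and a thick black line for the median of all animals. Median ATP7B rose at days 13 and 28 and was 3.50 and 3.35 CPM at days 45 and 60, median CCS dipped at day 45 to 54.5 CPM and was 63.4 CPM at day 60, and median SLC31A2 went from 17.7 to 16.2 CPM.

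ATOX1, the chaperone that brings copper to both pumps, showed no change that passed. Its medians were 7.95, 7.49, 7.11, 8.12 and 6.61 CPM from day 0 to day 60, and the log2 changes were -0.19 to -0.03 (lowest FDR = 0.343). Single libraries went as low as 0.393 CPM (INR BRD animal 39 at day 45) and 1.03 CPM (INR healthy animal 30 at day 45), and the SE of its changes were the largest of the 10 genes. The interval of the fold was 0.721 to 1.07 at day 13 and 0.810 to 1.19 at day 28.

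CCS, the chaperone of SOD1, ranged from 49.3 to 78.4 CPM at day 0 (median 65.6) and from 44.5 to 83.99 CPM at day 45 (median 54.5). At the other days the medians were 66.4, 63.5 and 63.4 CPM. The day 45 level was lower by 14.02% (log2 -0.22, SE 0.044, FDR = 5.09e-05), in 21 of 26 animals, and the 95% interval of the fold was 0.810 to 0.913. Days 13, 28 and 60 gave 0.02, -0.07 and -0.03 (FDR = 0.739, 0.250 and 0.703). This was the firmest of the 7 calls and the one that passed under all 10 other settings tried: healthy libraries alone gave -0.17 (FDR = 0.0919) and BRD libraries alone gave -0.28 (FDR = 0.00141).

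COMBO healthy animal 3 stood apart at day 45 with 83.99 CPM of CCS, where the other COMBO animals had 48.8 to 62.1 CPM. Day took up 16.5% of the variance of CCS, the largest share of the 10 genes. The summed markers of neutrophils, monocytes, T cells, B cells, platelets and erythroid cells had correlations with CCS between -0.18 and 0.04. Levels most like those of CCS were seen for P3H1 (r = 0.73), NUBP2 (r = 0.69), an iron-sulfur cluster assembly factor, and ZNF576 (r = 0.66). Against the same day 0 samples, NUBP2 and ZNF576 were also lower at day 45 (log2 -0.14 and -0.19, FDR = 0.00850 and 0.000713), and P3H1 stood at -0.08 (FDR = 0.116).

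Among the mitochondrial chaperones, SCO1 ranged from 39.1 to 60.3 CPM at day 0 (median 46.3) and from 41.9 to 61.4 CPM at day 45 (median 49.53). It was higher by 6.27% at day 45 (log2 0.09, SE 0.030, FDR = 0.0213), in 19 of 26 animals, and stood at -0.04, 0.02 and 0.04 on days 13, 28 and 60 without passing. The call was lost in healthy libraries alone (0.05, FDR = 0.468) and in BRD libraries alone (0.11, FDR = 0.123). At day 45, 3 of 4 B cell genes were also higher, and SCO1 had an r of 0.45 with their sum. The part of B cells in the SCO1 level was not tested. SCO2, which acts in the same copper transfer to cytochrome c oxidase, stayed between -0.06 and 0.03 (lowest FDR = 0.275), with medians of 15.8 to 17.3 CPM. COX17, which passes copper to both SCO proteins, stayed between -0.10 and 0.07 (lowest FDR = 0.296), with medians of 21.4 to 24.1 CPM.

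COMMD1 had medians of 19.8 CPM at day 0 and 17.9, 17.2, 18.6 and 17.97 CPM later. Its changes of -0.12 to -0.04 on the log2 scale did not pass (lowest FDR = 0.246), although in healthy libraries alone day 28 was lower by 0.26 (FDR = 0.0698). In BRD libraries the mean was 19.2 CPM at day 0 and 19.5 CPM at day 28.

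**Figure D3:**
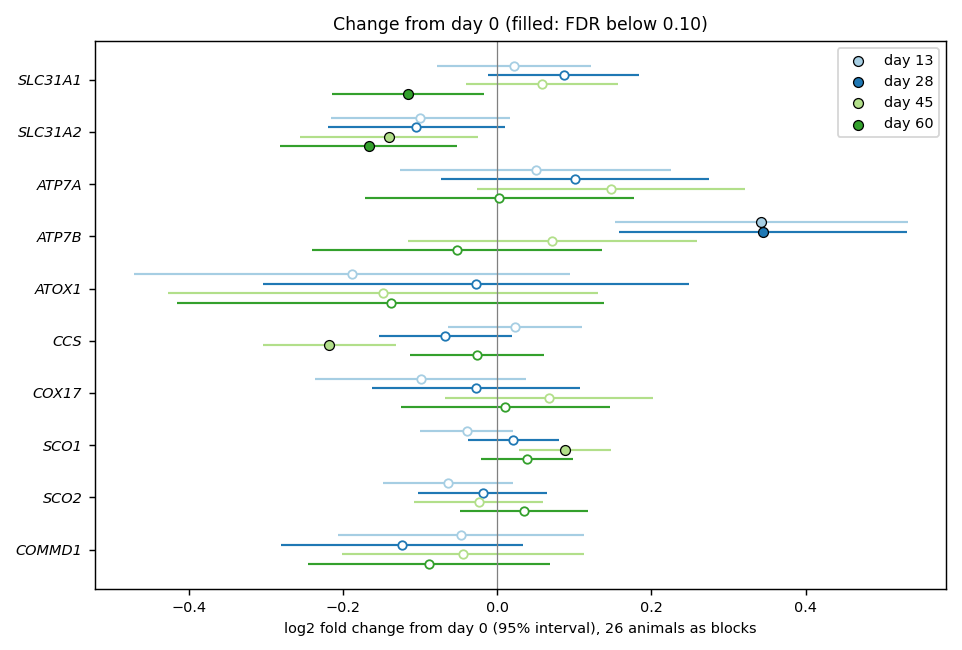
Log2 fold change of each gene from day 0 (horizontal axis) at days 13, 28, 45 and 60, with 95% intervals and animals as blocks; filled points had an FDR below 0.10. Filled points are ATP7B at days 13 and 28, CCS and SCO1 at day 45, SLC31A2 at days 45 and 60 and SLC31A1 at day 60, and the widest intervals belong to ATOX1.

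The second comparison asked whether the supplement, with its source of copper and other minerals, went with a difference in these genes. The amount eaten differed as well. In the paper's intake values, healthy AAC cattle took in more copper and manganese and less cobalt per day than healthy COMBO or INR cattle. Its feed analysis pointed the other way. The INR feed held more copper and manganese and less cobalt than the AAC feed, which COMBO steers also ate. The direction of the difference in amount is therefore unclear, and source and amount cannot be told apart. No gene of the 10 passed between any pair of supplements, at any day or over days 13 to 60. By day, 0 of 150 tests passed (lowest FDR = 0.221), and 10 had an unadjusted p below 0.05, or 6.67% against 6.60% of all tests of all genes in the same 15 comparisons. DESeq2 and limma with voom also called 0 of 150.

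Few genes of any kind were called between supplements. For AAC against INR the share of all genes called was 0% at day 0, 0.0422% at day 13, 0.0106% at day 28, 0% at day 45 and 0% at day 60. For COMBO against INR it was 0% at days 0, 13, 28 and 45 and 0.00528% at day 60. For AAC against COMBO it was 0.565% at day 0, 0.929% at day 13, 0.0317% at day 28, 0% at day 45 and 0% at day 60.

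ATP7B showed the widest gap between supplements. The mean of days 13 to 60 ran from 1.34 to 4.92 CPM over 11 INR animals (median 3.18), from 3.10 to 6.75 CPM over 8 AAC animals (median 4.43) and from 3.27 to 5.89 CPM over 7 COMBO animals (median 5.17). The groups overlapped, but some INR animals lay below all AAC and COMBO animals. These were BRD animals 40, 29, 23 and 43 at 1.34, 1.65, 2.81 and 2.89 CPM and healthy animal 50 at 3.03 CPM. With counts summed per animal, AAC was above INR by 0.51 on the log2 scale (SE 0.21, FDR = 0.510) and COMBO was above INR by 0.57 (SE 0.22, FDR = 1), and AAC and COMBO differed by -0.06 (SE 0.23, FDR = 0.992). The intervals of the fold were 1.06 to 1.92 and 1.09 to 2.02 for the first 2 pairs, before any correction for the number of genes tested.

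A gap of the same sign was seen at day 0, the day of pen enrolment, when the ATP7B medians were 2.65 CPM in INR, 3.44 CPM in AAC and 3.32 CPM in COMBO, and AAC stood above INR by 0.59 (SE 0.26, FDR = 1) and COMBO above INR by 0.36 (SE 0.27, FDR = 0.941). From day 13 to day 60 the AAC medians were 3.795, 5.097, 3.66 and 3.24 CPM, the COMBO medians 5.12, 4.51, 3.601 and 4.63 CPM, and the INR medians 3.46, 3.32, 3.23 and 2.65 CPM. AAC against INR gave 0.24, 0.70, 0.45 and 0.42 over those days, and COMBO against INR gave 0.50, 0.50, 0.49 and 0.76 (lowest FDR = 0.634). JCHAIN, which resembled ATP7B over the libraries, gave 0.56 for AAC against INR and 0.69 for COMBO against INR over days 13 to 60 and did not pass either (FDR = 0.450 and 0.867).

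For the importers no difference between AAC and COMBO passed over all steers. The SLC31A1 values for AAC against COMBO were 0.30 at day 0 (SE 0.13, FDR = 0.349) and 0.31 at day 13 (SE 0.13, FDR = 0.300), and SLC31A2 gave 0.34 at day 0 (SE 0.14, FDR = 0.323). In BRD steers at day 0 the SLC31A2 levels were 16.03, 22.3, 26.8 and 39.6 CPM in AAC and 10.4, 13.6 and 17.5 CPM in COMBO. Taken alone, the BRD libraries gave a difference of 0.91 that passed at day 0 (FDR = 0.0124), in a fit that called 2364 genes in all for that comparison. In healthy steers the same comparison ran the other way, at -0.25 (FDR = 0.567), and the SLC31A1 difference stood at -0.02 (FDR = 0.989). Only 4 AAC and 3 COMBO steers entered the BRD comparison.

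CCS for AAC against COMBO at day 13 stood at -0.28 (SE 0.10, FDR = 0.221), the lowest FDR of the 150. Its levels were 49.9 to 68.5 CPM in 7 AAC animals (median 59.1) and 64.1 to 84.24 CPM in 7 COMBO animals (median 68.6), so that the groups overlapped between 64.1 and 68.5 CPM. COX17 and SCO1 stood at 0.30 and 0.15 in that comparison and did not pass (FDR = 0.326 and 0.335).

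Over days 13 to 60, 0 of 30 supplement tests passed, and the share of all genes called was 0% for each of the 3 pairs. ATP7B held both tests with an unadjusted p below 0.05, and DESeq2 and limma with voom called 0 of 30 as well. Apart from ATP7B, differences lay between -0.12 and 0.25 on the log2 scale. The intervals of the fold, before correction, differed in width by gene. For SCO1, AAC against INR reached from 0.954-fold to 1.09-fold, and for ATOX1 from 0.904-fold to 1.56-fold.

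**Figure D4:**
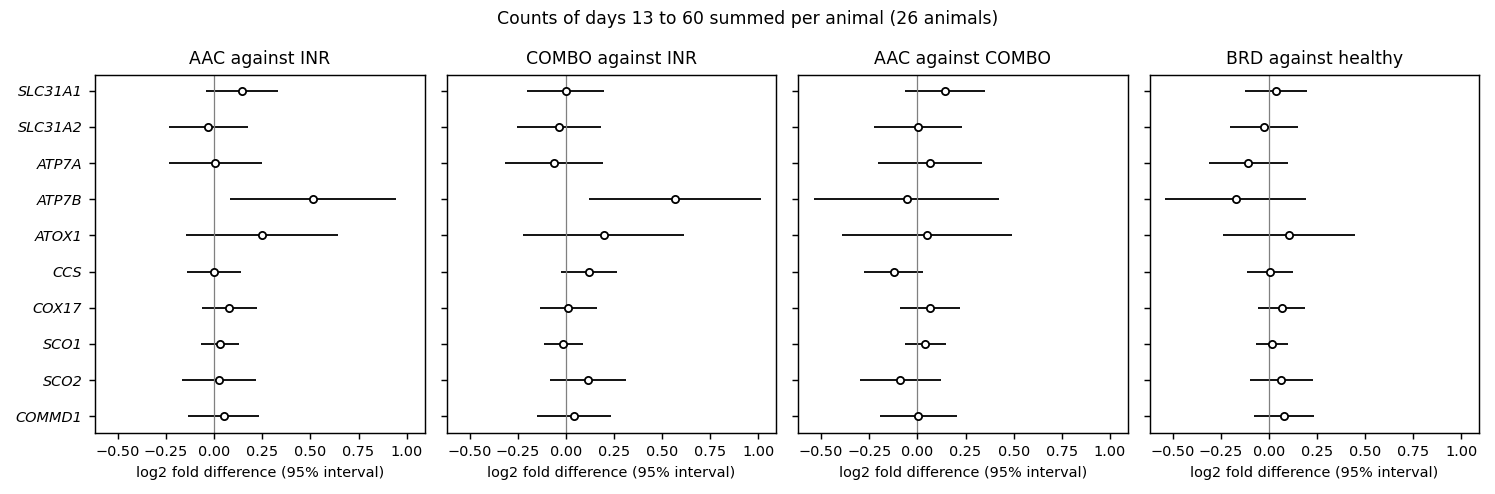
Log2 fold difference of each gene (horizontal axis, 95% interval without correction for the number of genes) between pairs of supplements and between BRD and healthy steers, from counts of days 13 to 60 summed per animal (26 animals). ATP7B lies to the right in both comparisons with INR, at 0.51 and 0.57, and no point passed an FDR of 0.10.

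The third comparison set BRD against healthy steers. The label belongs to the animal and is the same on every day. Days of diagnosis and treatment are not given, so a BRD library may come from before, during or after illness. None of the 10 genes passed at any day, and 1 of 50 tests had an unadjusted p below 0.05. This was COMMD1 at day 28, at 14.28 to 34.1 CPM in 14 BRD animals (median 17.8) and 12.9 to 23.6 CPM in 12 healthy animals (median 16.42), a log2 difference of 0.27 (SE 0.12, FDR = 0.553). Over all genes the share called was 0.0158% at day 0, 0% at day 13, 0.00528% at day 28, 0% at day 45 and 0.00528% at day 60. With pen in place of supplement as a term, SLC31A2 at day 0 was higher in BRD by 0.43 (FDR = 0.0998), and that fit called 788 genes in all at day 0. Pen 5 held only healthy steers and pens 6 and 7 only BRD steers. That fit could therefore compare the labels only within pens 2, 3, 4 and 8, which held no COMBO steers. DESeq2 and limma with voom called 0 of 50.

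Over days 13 to 60, 0 of 10 genes passed between BRD and healthy steers with edgeR, DESeq2 or limma, 0 had an unadjusted p below 0.05, and the share of all genes called was 0%. Differences ran from -0.17 for ATP7B (SE 0.18) to 0.10 for ATOX1 (SE 0.17), each with FDR of at least 0.942. ATP7B animal means were 1.34 to 5.86 CPM in BRD steers (median 3.34) and 3.03 to 6.75 CPM in healthy steers (median 3.92). CCS was nearly level, at 61.5 ± 6.30 CPM in BRD and 61.8 ± 6.39 CPM in healthy animals (mean ± SD, n = 14 and 12), with an interval of the fold of 0.925 to 1.09.

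The last comparisons asked whether the change from day 0 differed between groups. For the 10 genes, 0 tests passed by supplement (lowest FDR = 0.998) and 0 by disease label (lowest FDR = 1), and none had an unadjusted p below 0.05. The share of all genes called was 0.00528% by supplement and 0% by disease label. DESeq2 and limma with voom also called 0 of 10 in each. Tests that did not pass do not show that the groups changed alike. The changes of ATP7B, CCS, SLC31A1, SLC31A2 and SCO1 are given mainly for all steers together.

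The wider copper pathway was read from lists chosen with earlier results of these data known, and in the comparisons of supplements and disease labels 0 of their genes passed. Against day 0, the enzymes that use copper gave 10, 7, 2 and 5 called of 14 tested at days 13, 28, 45 and 60, of which 9, 7, 2 and 4 were higher. The share of all genes called on those days was 33.21%, 36.04%, 30.95% and 33.36%, so that the count of 5 at day 60 was near that of all genes and the count of 2 at day 45 was below it. Their median log2 change was 0.42, 0.36, 0.05 and 0.20, and that of all genes was between -0.01 and 0.01 on each day. Several of them were scarce in blood. SOD3, the extracellular superoxide dismutase, had medians of 0.189 CPM at day 0 and 0.571 and 0.861 CPM at days 13 and 28 (log2 0.94 and 1.21, FDR = 0.000451 and 2.36e-06). LOXL3, a lysyl oxidase relative, was higher by 0.33 at day 13 (FDR = 0.000527), and ceruloplasmin (CP), a copper ferroxidase, by 0.34 at day 28 (FDR = 0.0148). LOXL1 and the amine oxidase AOC1 also passed at day 13, on levels of at most 0.222 and 0.0864 CPM at day 0, and the AOC1 median was 0 on every day. At day 13 the LOXL1 median was 0.233 CPM but its highest library stood at 14.16 CPM, and the highest AOC1 library stood at 3.68 CPM. The summed platelet genes, which were higher at later days, had an r of 0.50 with SOD3 and 0.48 with LOXL3, and their part was not tested.

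Metal reductases, which reduce copper and iron ahead of uptake, gave 2, 4, 2 and 3 called of 4 tested. On those days 30.95% to 36.04% of all genes were called. The called reductases were higher than at day 0, except STEAP4, which was lower at day 28 (log2 -0.42, FDR = 0.0513). STEAP3 was higher on each later day, with medians of 10.7 CPM at day 0 (5.97 to 20.1) and 16.3, 16.5, 17.1 and 14.7 CPM later. Its log2 change was 0.52, 0.68, 0.64 and 0.43 (FDR = 9.43e-06, 3.86e-09, 3.40e-08 and 0.000167), larger than that of any of the 10 copper genes. STEAP3 is best known as the ferrireductase of red cell precursors, and its r with the summed erythroid genes was 0.38. CYBRD1, another ferrireductase, was higher at days 28, 45 and 60 by 0.19, 0.24 and 0.23 (FDR = 0.0352, 0.00722 and 0.00778).

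Relatives and partners of COMMD1 in endosomal recycling gave 6, 4, 2 and 6 called of 14, in both directions (2 higher and 4 lower at day 13, 3 and 3 at day 60). Against 30.95% to 36.04% of all genes called, these counts and those of the next list set neither list apart. COMMD6 was higher at day 28 by 0.37 (FDR = 1.11e-06) and its r with the summed platelet genes was 0.65. CCDC22, the scaffold that binds COMMD proteins, was lower at day 13 by 0.15 (FDR = 0.00471). Other assembly factors of cytochrome c oxidase gave 4, 3, 3 and 3 called of 11, also in both directions. COX20 was lower at day 45 by 0.30 (FDR = 0.000873) and COX11, which delivers copper to a different site of the enzyme than SCO1, was lower at day 13 by 0.14 (FDR = 0.00832).

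Storage and sensing genes, which included the metallothioneins MT1A, MT1E and MT2A and their regulator MTF1, gave 0 called of 9 tested on each of the 4 later days. In edgeR 0 of them had an unadjusted p below 0.05 on any of these days, where at least 30.95% of all genes were called on each day.

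**Figure D5:**
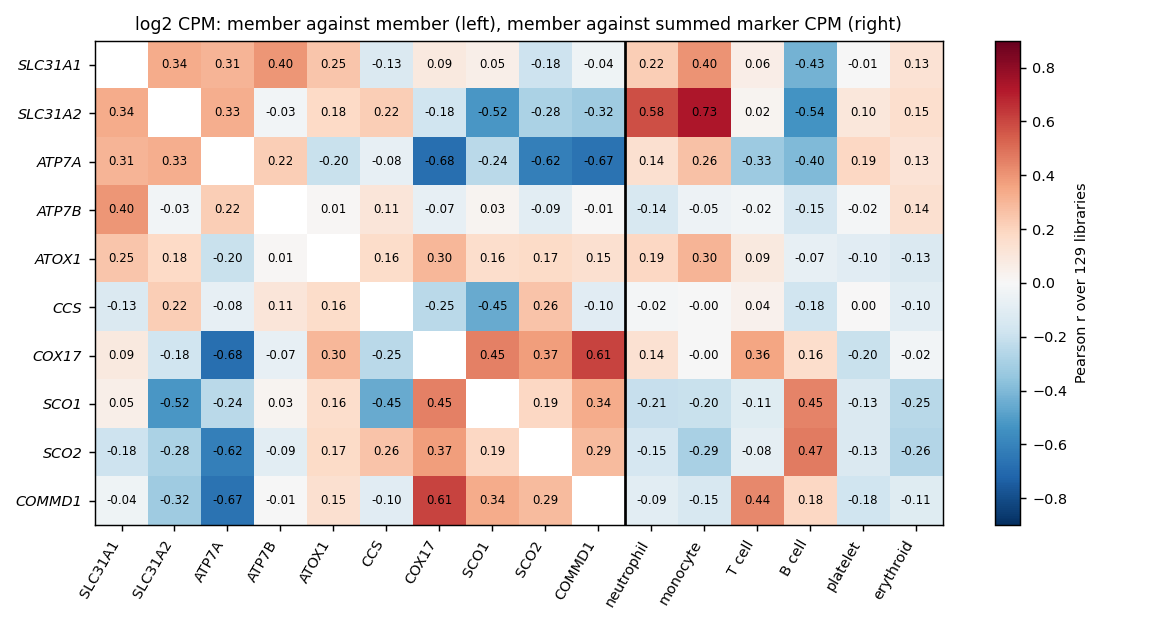
Pearson r of log2 CPM over the 59 healthy and 70 BRD libraries, between the 10 genes (left of the line) and between each gene and the summed CPM of 6 sets of blood cell markers (right of the line). ATP7A is opposed to COX17 (-0.68), COMMD1 and SCO2, and SLC31A2 stands out by its r of 0.73 with the monocyte genes.

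The 10 genes did not move as 1 unit. Over 45 pairs, r ran from -0.68 (ATP7A and COX17) to 0.61 (COX17 and COMMD1), with a median of 0.05 and 20 pairs below 0. These values describe 59 healthy and 70 BRD libraries from 26 animals, and they share depth and scaling. ATP7A was opposed to COX17, COMMD1 and SCO2 at once, at -0.68, -0.67 and -0.62. The day 60 libraries of animals 40 and 54 carried the lowest ATP7A (28.2 and 22.8 CPM) and the highest COX17 (44.9 and 37.6 CPM). One of them was the library whose RNA integrity was lowest, and the part of RNA quality was not tested.

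The genes most like each of the 10 also differed. ATP7A was most like QKI, an RNA-binding protein, TET2, a DNA demethylase, and CPEB4 (r = 0.89, 0.88 and 0.88). COX17 was most like NDUFA13, a subunit of respiratory complex I, EDF1 and ATP5PD, a subunit of ATP synthase (r = 0.89, 0.88 and 0.87). SCO1 was most like the translation factor EIF2S1 (r = 0.81), SCO2 most like HINFP (r = 0.73), COMMD1 most like DAP (r = 0.73) and SLC31A1 most like TMED7 (r = 0.68). ATOX1 had no close companion, since its highest r was 0.44, with the autophagy receptor SQSTM1. SCO1 and SCO2 varied with the summed B cell genes (r = 0.45 and 0.47), and SLC31A1 ran against them (r = -0.43).

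AAC BRD animal 21 combined the highest animal mean of SLC31A1 (35.96 CPM), SLC31A2 (24.2 CPM) and ATP7A (107.4 CPM) of the 26 steers. In the RefSeq annotation of a newer cattle assembly (ARS-UCD2.0, used for names and neighbours only) SLC31A1 and SLC31A2 lie near each other with 1 gene, FKBP15, between them, and their own r was 0.34. ATP7A overlaps 2 pseudogenes there, so reads in the overlap could be shared, and the other 9 genes overlap no gene. Whether these pseudogenes resemble ATP7A in sequence was not checked.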

How the data were processed

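Per the study's methods, the authors trimmed reads with Trimmomatic 0.39, aligned them to ARS-UCD1.3 with HISAT2 and estimated gene expression with StringTie 2.2.0, from whose coverage prepDE derived the deposited raw counts for an average read length of 150 bases. RNA integrity is as stated in those methods. Such counts are estimates, and genes that share sequence may share reads. No value was normalized before deposit.

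From these counts, edgeR 4.0.16 (R 4.3.3) was run on all genes kept by filterByExpr over 30 groups (supplement, disease label and day), scaled by TMM. Quasi-likelihood F-tests used 1 dispersion common to all genes. Supplement and BRD contrasts by day weighted groups equally; those over days 13 to 60 used counts summed per animal. Day contrasts had animal as a block: deviations of libraries from 1 animal had a median r of 0.371, against -0.010 between animals. Calls required FDR below 0.10, over all genes. SE are the log2 fold change over the root of F, and 95% intervals follow from them. Log2 CPM for correlations used a prior count of 2. Alternatives used DESeq2 1.42.0 and limma 3.58.1; functions were tested on simulated data. No columns were left out. No 2 libraries of a group were identical, and replicates are separate animals.

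The 10 genes, the lists and the blood cell markers were chosen with earlier results of these data known. Other named genes were, per gene, the 3 with the highest r over all libraries and, per list and comparison, at most 4 called genes by smallest p. Leaving out animals kept the dispersion of the full fit.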

Additional observations from a re-analysis of the deposited data

Results flagged for a closer look

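The highest and the lowest AAC and COMBO animal were checked with Dixon's gap ratio in 120 groups of values of the 10 genes, and 12 (10%) held an animal that stood apart from the others. Chance gives about 1 in 20 for separate groups. These groups share animals and days, and some genes are correlated, so the 10% cannot be read as an excess over chance. The 11 INR animals were not put to this check. It therefore did not cover the 44.9 CPM of COX17 in INR BRD animal 40 at day 60 (INR median 21.6 CPM). AAC BRD animal 21 accounted for 5 of the 12, always as the highest. It stood at 46.3 CPM of SLC31A1 at day 0, where the other AAC animals had 21.2 to 32.5 CPM. Its SLC31A2 level was 28.2 CPM at day 28, against 13.32 to 18.3 CPM, and 24.2 CPM as the mean of days 13 to 60, against 14.02 to 16.8 CPM. Its ATP7A level was 118.7 CPM at day 28, against 64.9 to 82.8 CPM, and 113.97 CPM at day 45, against 69.3 to 87.6 CPM.

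COMBO BRD animal 54 accounted for 4. At day 60 it had the lowest ATP7A level, 22.8 CPM, where the other COMBO animals had 68.7 to 89.01 CPM, and the highest COX17 level, 37.6 CPM, against 19.2 to 26.3 CPM. At day 28 it had 30.8 CPM of COX17, against 19.6 to 24.02 CPM, and 34.1 CPM of COMMD1, against 14.4 to 17.7 CPM.

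COMBO healthy animal 3 had 83.99 CPM of CCS at day 45, against 48.8 to 62.1 CPM, and 30.7 CPM of COX17 at day 13, against 16.003 to 21.4 CPM. AAC BRD animal 31 had 27.7 CPM of COMMD1 at day 13, against 15.5 to 19.7 CPM.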

How the results depend on the processing

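The 7 calls against day 0 were also made with DESeq2, limma with voom, RLE size factors, a trended dispersion and no filter on low counts. Without the replicate block, 3 were made (ATP7B at day 28, CCS and SCO1 at day 45), and in BRD libraries alone 2 were made (CCS at day 45 and SLC31A2 at day 60). Healthy libraries alone kept only ATP7B at days 13 and 28 and CCS at day 45. With the replicate block, supplement pairs could be compared only by their change from day 0, which leaves out differences at day 0, and gave 0 calls. In BRD libraries alone supplement pairs by day gave 3 calls, all for AAC against COMBO at day 0: SLC31A1 (0.60), SLC31A2 (0.91) and SCO1 (-0.34). In healthy libraries the first 2 reversed, to -0.016 and -0.25. BRD against healthy by day gave 1 call with pen in place of supplement. With single animals left out, supplement pairs by day gave 0 to 2 calls, and both came without COMBO animal 16 (SLC31A1 0.43, FDR = 0.0635; SLC31A2 0.44, FDR = 0.0950, at day 0). SLC31A2 at day 45 then ran from -0.17 to -0.11 (FDR = 0.0214 to 0.151), and SLC31A1 at day 60 from -0.14 to -0.09 (FDR = 0.0287 to 0.189), the latter lost without animal 3, 17, 21, 29, 30, 39, 40 or 48. The other 5 calls held in all 26 omissions. Over all genes, DESeq2 called 426 and 459 for AAC against COMBO at days 0 and 13, where edgeR called 0.565% and 0.929% of all genes, and 18 to 98 in the by-day comparisons in which edgeR called at most 3. Without the block 3472 to 4448 genes were called against day 0, where edgeR with it called 5861 to 6825. In BRD libraries alone AAC against COMBO at day 0 gave 2364, and with pen in place of supplement BRD against healthy at day 0 gave 788. The cause of these differences was not tested. ATOX1 and ATP7B had the fewest counts and the widest intervals, which limits what could be detected for them.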
